A study of Arabidopsis thaliana with 6 samples.

Results

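The plant defensin genes PDF1.2 (AT5G44420), PDF1.2b (AT2G26020) and PDF1.4 (AT1G19610) were followed through a comparison of myb3r1 myb3r4 double-mutant with wild-type Arabidopsis thaliana seedlings. They were read from the probe sets annotated to exactly 1 of these genes, 3 of the 22810 probe sets on the array, 249052_at for PDF1.2, 257365_x_at for PDF1.2b and 261135_at for PDF1.4. The genes were picked because their signals were higher in the mutant in these same arrays, so their differences between genotypes are given as a description and carry no test. All 3 probe sets passed the filter on dim signals, and the wild-type mean of each lay above the lowest mean level kept, -0.83. For PDF1.4 the margin was small, with a wild-type mean of -0.72. Its wild-type arrays of sets 2 and 3, at -1.05 and -0.88, lay below -0.83.

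The myb3r1 myb3r4 double mutant, mutated in the MYB transcription factor genes MYB3R1 and MYB3R4, had 3 arrays, and wild type, against which it was set, also had 3. Both were in the Col-0 background and were sampled as whole seedlings at 9 days of age, after growth without treatment under constant light at 22 degrees Celsius, on agar plates that held 2% sucrose. The labels place 1 array of each genotype in each of 3 experimental sets. They do not name the mutant alleles, and they leave unsaid if each set was grown apart. The p-values below measure no more than the spread among these samples, and that spread may be technical. In whole seedlings, fewer cells of a type and less RNA per cell cannot be told apart.

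Plant defensins are small secreted proteins, rich in cysteines that form disulfide bridges, and many of them slow the growth of fungi. PDF1.2 is the usual marker of the branch of defence in which jasmonate and ethylene act together: the transcription factors ERF1 and ORA59 activate it, and salicylate and the MYC2 branch of jasmonate signalling hold it down. PDF1.2b is a near-identical copy at another locus, and PDF1.4 is a more distant relative in the same subfamily. MYB3R1 and MYB3R4 are best known as regulators of genes that are needed late in the cell cycle.

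Each level is a log2 signal over the array's own median, so that 0 is the median of the array. A difference is mutant minus wild type within an experimental set. Levels of one probe set are not compared with those of another, since probes differ in how well they bind. The ending of 257365_x_at marks, in the array maker's naming, a probe set whose probes may also bind other sequences. PDF1.2 and PDF1.2b may therefore read each other's transcripts, and their values are not independent.

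PDF1.2 was at 6.77, 6.42 and 6.16 in the mutant arrays of sets 1, 2 and 3, against 6.04, 4.82 and 4.34 in the wild-type arrays of the same sets. Every mutant array lay above every wild-type array, but the lowest mutant value, in set 3, was only 0.12 above the highest wild-type value, in set 1. The mean was 6.45 ± 0.31 in the mutant and 5.07 ± 0.88 in wild type (SD, n = 3 each), a mean difference of 1.38 ± 0.57 over the 3 sets, or 2.61-fold. Across all 13648 probe sets tested, 8.15% had every mutant array above every wild-type array, and 26.3% were higher in the mutant in all 3 sets. A mean difference of at least 1, with the mutant higher, was found for 0.857%. Since the genes were picked by this contrast, nothing is read from where they stand in these shares.

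PDF1.2b was at 6.96, 6.84 and 6.59 in the mutant arrays of sets 1 to 3 and at 6.14, 5.04 and 4.78 in the wild-type arrays. The groups did not overlap here either, with 0.45 between the lowest mutant and the highest wild-type value. The mean was 6.80 ± 0.19 in the mutant and 5.32 ± 0.72 in wild type (SD, n = 3 each), which put the mean difference at 1.48 ± 0.57 over the sets, or 2.78-fold.

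PDF1.4, a gene that has been studied far less than PDF1.2, was read near the median of the arrays. It was at 1.76, 0.54 and 0.06 in the mutant arrays of sets 1 to 3, against -0.25, -1.05 and -0.88 in the wild-type arrays. Again the groups did not overlap, and the gap between the lowest mutant and the highest wild-type value was 0.31. The mean was 0.79 ± 0.88 in the mutant and -0.72 ± 0.42 in wild type (SD, n = 3 each), a mean difference of 1.51 ± 0.54 over the sets, or 2.86-fold.

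**Figure D1:**
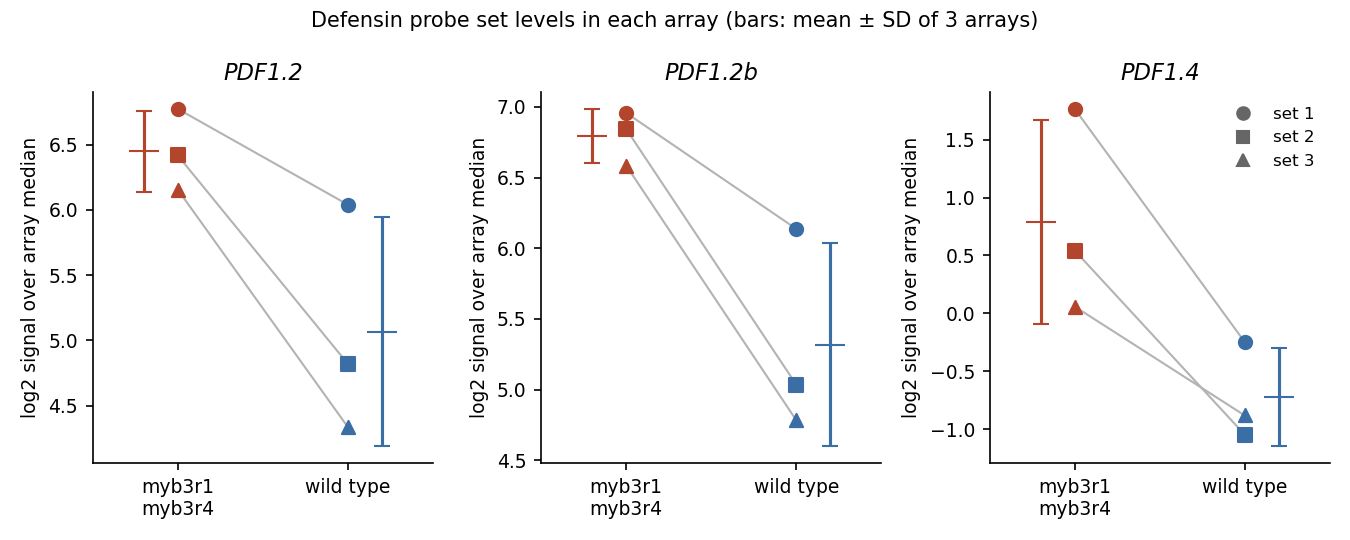
Log2 signal over the array median (vertical axis) of PDF1.2, PDF1.2b and PDF1.4 in each of the 6 arrays, with myb3r1 myb3r4 left of wild type, 1 symbol shape per experimental set, grey lines joining the 2 arrays of a set and bars for the mean ± SD of 3 arrays. Each line runs down from the mutant to the wild-type array of its set, and the smallest gap between the genotypes is that of PDF1.2, 0.12.

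The experimental sets differed from each other as well as the genotypes. In both genotypes PDF1.2 and PDF1.2b were highest in set 1 and lowest in set 3. For PDF1.2 the 3 mutant arrays spanned 0.62 on the log2 scale, while the 3 wild-type arrays spanned 1.70. For PDF1.2b the spans were 0.37 in the mutant and 1.35 in wild type. PDF1.4 had the wider span in the mutant, 1.71 against 0.80 in wild type, and its lowest wild-type array was that of set 2.

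The size of the difference in a set was thus not the same for the 3 genes. PDF1.2 differed by 0.73 in set 1, 1.60 in set 2 and 1.82 in set 3, and PDF1.2b by 0.82, 1.81 and 1.80. In set 1 these are ratios of 1.66 and 1.77, and in the other sets ratios of 3.02 to 3.53. PDF1.4 ran the other way, with differences of 2.01, 1.59 and 0.94 and ratios of 4.03, 3.01 and 1.92 in sets 1 to 3. The near-identical pair shared its pattern over the sets, and set 1 held the smallest difference for that pair and the largest for PDF1.4.

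The scale decided how far set 1 stood apart for the pair. On a linear scale, in units of the array median, PDF1.2 was at 109, 85.5 and 71.3 in the mutant arrays of sets 1 to 3 and at 65.8, 28.3 and 20.2 in the wild-type arrays. Its linear differences were then 43.6, 57.2 and 51.1, a much narrower range than that of the ratios. PDF1.2b had linear differences of 53.9, 82.1 and 68.5. The linear differences of PDF1.4 kept the order of its ratios, at 2.56, 0.973 and 0.499. The brightest value deposited for each array was between 7.07 and 7.33, so the readings of PDF1.2 and PDF1.2b lay near the top of the scale in the mutant arrays and in the wild-type array of set 1. The part of this in the smaller ratio of set 1 was not tested.

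**Figure D2:**
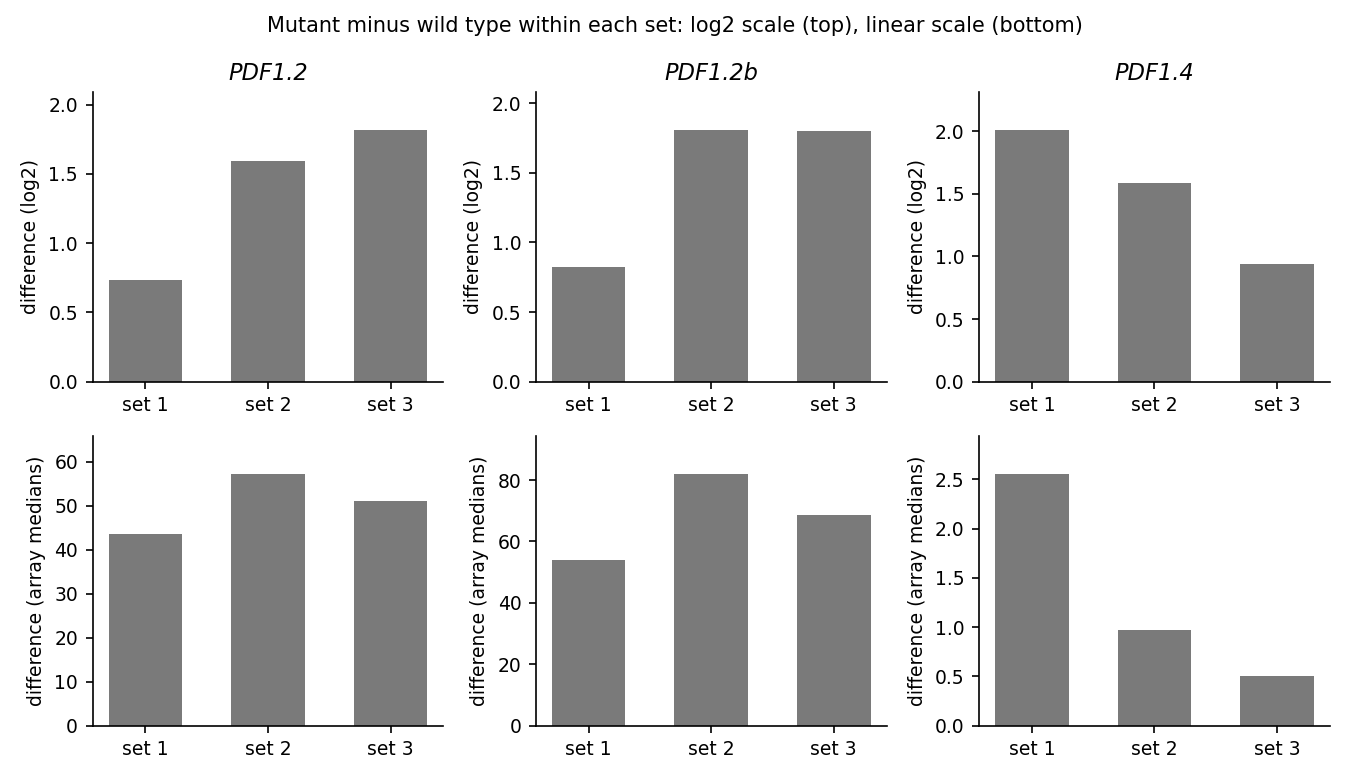
Mutant minus wild-type difference of PDF1.2, PDF1.2b and PDF1.4 in each experimental set (horizontal axis), on the log2 scale in the top row and on the linear scale, in array medians, in the bottom row, 1 bar per set. For PDF1.2 the log2 bars of sets 1 to 3 stand at 0.73, 1.60 and 1.82 and the linear bars at 43.6, 57.2 and 51.1. For PDF1.2 and PDF1.2b set 1 is lowest on both scales, and for PDF1.4 set 1 is highest on both scales.

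A sign of RNA quality moved with the levels. The signal of the Arabidopsis control genes on the array (actin, GAPDH and ubiquitin) can be read near the 3' end and near the 5' end of their transcripts, and a larger 3' minus 5' value is a sign of shorter or more degraded RNA. This value was 1.50, 1.92 and 2.44 in the mutant arrays of sets 1 to 3 and 1.07, 3.04 and 3.22 in the wild-type arrays. Within each genotype the array with the lowest value, that of set 1, had the highest level of all 3 defensins. PDF1.2 and PDF1.2b fell in both genotypes as the control value rose over the arrays. PDF1.4 did so in the mutant but not in wild type. Mutant minus wild type, the control value differed by 0.44, -1.12 and -0.78 in sets 1 to 3. In set 1, where the control value was higher in the mutant, PDF1.2 and PDF1.2b differed by 0.73 and 0.82 and PDF1.4 by 2.01. In sets 2 and 3 the control value was lower in the mutant. There the pair differed by 1.60 to 1.82 and PDF1.4 by 1.59 and 0.94. Since the genes were picked for being higher in the mutant, nothing is read from these signs. The part of RNA quality in the defensin differences was not tested. With the control value as a covariate in the fit beside the set, the difference was 1.07 for PDF1.2, 1.14 for PDF1.2b and 1.73 for PDF1.4. In that fit the genotype and the covariate both rest on the 3 within-set differences, so its values, here and below, are rough.

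**Figure D3:**
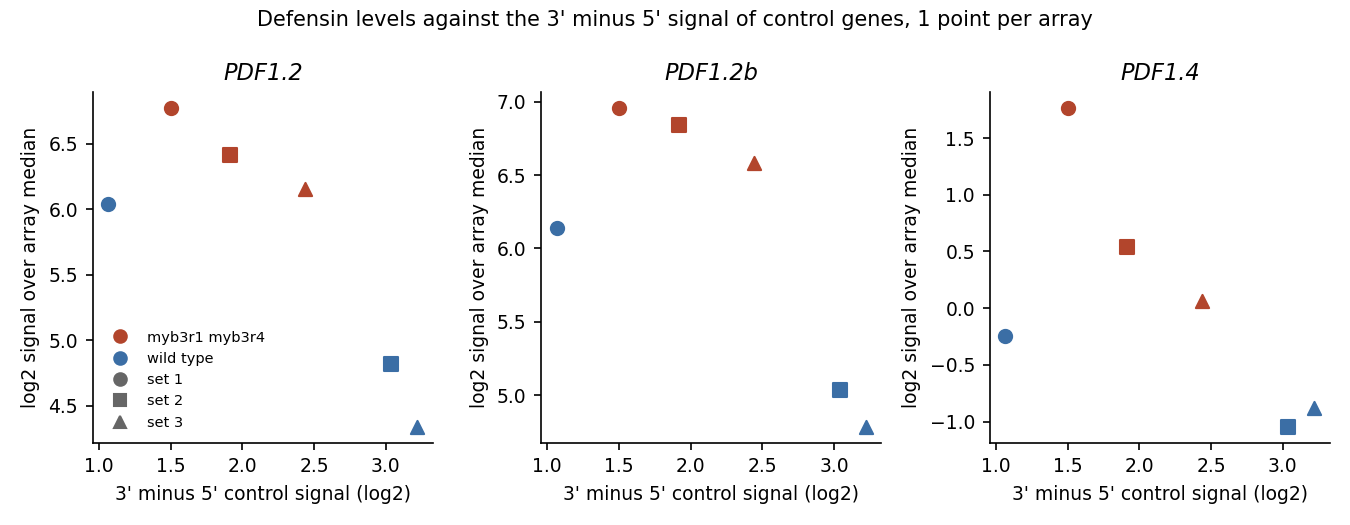
Log2 signal over the array median of PDF1.2, PDF1.2b and PDF1.4 (vertical axes) against the mean 3' minus 5' log2 signal of the actin, GAPDH and ubiquitin controls (horizontal axes), 1 point per array, coloured by genotype and shaped by experimental set. The wild-type arrays of sets 2 and 3, with control values of 3.04 and 3.22, hold the lowest defensin levels. The wild-type array of set 1, at 1.07, lies below the mutant array of its set in each panel.

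Markers of leaf and root, the organs of a whole seedling, were read where a probe set was named. Of 7 leaf markers 3 had a named probe set, RCA, PRK and PSAE-1 of photosynthesis, and their summed linear signal was 233 to 296 array medians in the mutant and 196 to 234 in wild type. Of 7 root markers 4 had one, PYK10, NAI2, EXPA7 and PRX72. Their sum was 67.3 to 110 in the mutant arrays and 59.6 to 96.3 in the wild-type arrays. None of those tested passed between genotypes in limma. The single pollen marker with a named probe set, the tubulin gene TUA1, was at 0.74 ± 0.50 in the mutant and 0.31 ± 0.80 in wild type (SD, n = 3 each), and 0 of 5 dry seed markers had one. The leaf and root sums were higher in the mutant in every set, but the root markers did not all move together. Most of the root sum was PYK10, which differed by 0.23, 0.65 and 0.11 in sets 1 to 3. NAI2 differed by 0.08, 0.57 and 0.57, EXPA7 by -0.03, 0.65 and 0.72, and PRX72 by -0.73, 1.25 and -0.31. The part of the organs in the defensin differences was not tested. The mutated genes MYB3R1 and MYB3R4 had no named probe set and were not analysed here, so the genotype labels were not checked against them.

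Genes that could be set beside the defensins were few, because many well-known genes of jasmonate, ethylene and salicylate had no named probe set here. Of 221 genes on 8 lists, 23 had a named probe set and 15 were bright enough to be tested. Whether ERF1, ORA59, MYC2, COI1, PR4 or PR1 differed was therefore not analysed here. The test was limma's moderated test across all 13648 probe sets with a block for the experimental set and Benjamini-Hochberg adjustment, which called 72 probe sets, 0.528%, of which 19 were lower and 53 higher in the mutant. Without the scaling of each array to its median the calls were 33 lower and 41 higher. None of the 15 listed genes passed, and 6 of them had an unadjusted p below 0.05, against 17.4% of all probe sets. Of the 15, 14 had a value above 0 and 1 below, with a median difference of 0.28; PDF2.3 and MYC3 also lay below 0 with that scaling undone, and PDF2.2 and PDF2.3 with quantile normalization. Over all tested probe sets, 58.3% were above 0 and the median difference was 0.058.

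Among other defensins, 10 of 86 listed genes had a named probe set and 4 were tested. PDF2.2, PDF2.3, PDF2.5 and PDF2.1, of a subfamily known for steady expression rather than for induction by jasmonate, had a median difference of 0.15. That median was 0.31 without set 2, 0.29 with the control value as a covariate, 0.035 with quantile normalization and 0.023 with the scaling undone. PDF2.2 was at 5.80, 5.55 and 5.16 in the mutant arrays and at 5.30, 5.63 and 5.17 in the wild-type arrays, so that the genotypes overlapped and only set 1 had the mutant higher. Its difference was 0.13 (SE 0.15, limma adjusted p = 0.678), and that of PDF2.3 was 0.11 (SE 0.16, adjusted p = 0.729). PDF2.5 differed by 0.16 (SE 0.18) and PDF2.1 by 0.58 (SE 0.25, adjusted p = 0.281), the last with 1.22, -0.18 and 0.71 in sets 1 to 3.

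PDF1.1, the one other gene of the PDF1 subfamily with a named probe set, was too dim to be tested. It was at -1.49, -0.94 and -1.74 in the mutant arrays of sets 1 to 3 and at -2.66, -3.07 and -6.04 in the wild-type arrays. The genotypes did not overlap, but signals this far under the array median are noisy on a log scale, and no fold is given. The 8.15% with every mutant array above every wild-type array was counted over tested probe sets only. It is no background for PDF1.1, nor for THI2.1 below. The other 5 dim defensin probe sets, PDF2.4, PDF2.6, LCR24, LCR59 and LCR80, had mean levels below -4 in both genotypes and differences of both signs over the sets.

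Upstream of the defensins, EIN3, the ethylene-response transcription factor that switches on ERF1, was at 2.76, 2.45 and 2.03 in the mutant arrays and at 3.03, 1.78 and 1.87 in the wild-type arrays, with overlapping groups and a difference of 0.18 (SE 0.19, limma adjusted p = 0.635). Its level in wild type was highest in set 1, as for the defensins. In jasmonate synthesis, OPCL1, an acyl-CoA ligase gene, differed by 0.23, 1.58 and 0.31 in sets 1 to 3 and AIM1, a beta-oxidation gene, by -0.06, 0.64 and 0.26. The methyltransferase gene JMT, also on that list, was too dim to be tested and differed by -1.10, -0.12 and -0.08. In the jasmonate-responsive MYC branch, the transcription factor genes MYC3 and MYC4 differed by 0.07 and -0.04 (SE 0.16 each). The jacalin-like lectin gene JAL23 differed by 0.02, 1.69 and 1.54 in sets 1 to 3, with a mean of 1.08 (SE 0.29, adjusted p = 0.151). Nearly all of the JAL23 difference thus came from sets 2 and 3.

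Other secreted defence proteins had mean differences above 0 that did not pass either. CHI, a chitinase gene, was at 2.74, 2.26 and 1.69 in the mutant arrays and at 1.91, 0.48 and 1.098 in the wild-type arrays, a difference of 1.07 (SE 0.22, limma adjusted p = 0.0802). THI2.2, a thionin gene, differed by -0.06, 1.33 and 0.48 in sets 1 to 3, with a mean of 0.58 (SE 0.27), and OSM34, an osmotin gene, by 0.27 (SE 0.19). The related thionin gene THI2.1, a jasmonate-induced gene, was too dim to be tested, at -1.63, -1.38 and -1.45 in the mutant arrays and -2.50, -2.24 and -2.76 in the wild-type arrays, which did not overlap. On the salicylate branch, SAG101, a partner of the immune regulator EDS1, differed by 0.43 (SE 0.17, adjusted p = 0.253). GRX480, a glutaredoxin gene whose product can hold PDF1.2 down when made in excess, differed by 0.93, -0.01 and 1.31 in sets 1 to 3, with a mean of 0.75 (SE 0.25, adjusted p = 0.201).

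These counts hung on single sets. Without set 1 the genes OPCL1, JAL23 and CHI passed (differences of 0.94, 1.62 and 1.19), where 8.11% of all probe sets did. Without set 2 PDF2.1 and GRX480 passed (0.97 and 1.12), against 0.784% of all probe sets, and without set 3 CHI alone (1.31), against 1.52%. Means that did not pass moved as well. Without set 1 THI2.2 was at 0.90, AIM1 at 0.45 and PDF2.1 at 0.27. Without set 2 THI2.2 was at 0.21, OPCL1 at 0.27, AIM1 at 0.10 and OSM34 at -0.010. Without set 3 GRX480 was at 0.46 and OSM34 at 0.49. With the control value as a covariate THI2.2 was at 0.20, OPCL1 at 0.39, JAL23 at 0.53, AIM1 at 0.087, OSM34 at 0.15 and PDF2.1 at 0.96.

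**Figure D4:**
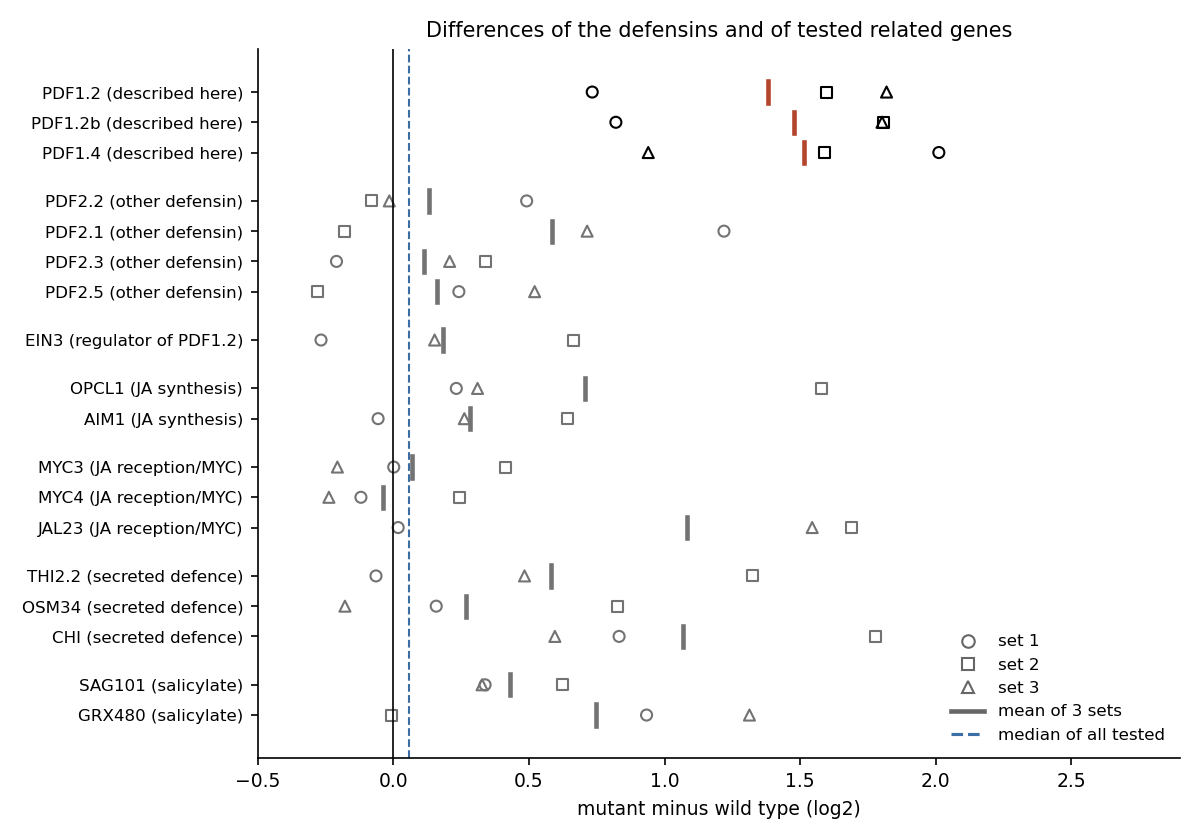
Mutant minus wild-type log2 difference (horizontal axis) of PDF1.2, PDF1.2b and PDF1.4 and of the 15 tested genes of the related lists, 1 open symbol per experimental set and a vertical tick for the mean of 3 sets; the dashed line at 0.058 is the median over all tested probe sets. The defensins described here lie at 0.73 or more in every set, and the listed genes, none of which passed in limma, are spread from below 0 to 1.78. The defensins were picked for being higher in the mutant and carry no test, so nothing is read from this contrast.

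To see which other transcripts had a like pattern, each of the 7304 other tested probe sets with 1 gene was set against the mean of the 3 defensins' levels, each centred on its own mean. The 6 arrays share their sets and genotypes, so these likenesses are a description. A Pearson correlation of at least 0.9 over the 6 arrays was found for 293 probe sets, or 4.01%. The 8 highest lay between 0.986 and 0.998 and were, in order, IMP4, AT2G25200, Hsp70-2, AT3G55470, COS1, AT1G55890, AT2G40780 and AT3G54150. They include IMP4, of ribosomal RNA processing, Hsp70-2, a chaperone gene, and COS1, of riboflavin synthesis. Their differences between genotypes were smaller than those of the defensins: 0.58 for IMP4, 0.66 for Hsp70-2, 0.66 for COS1 and 1.18 for AT2G25200. The defensins were picked for their difference and these genes by a correlation that takes no account of its size. Nothing is therefore read from this contrast in size.

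By their differences within sets alone, the transcripts nearest to the mean of the 3 defensins were others, apart from AT2G25200. That mean was 1.19, 1.66 and 1.52 in sets 1 to 3. It counts PDF1.2 and its near-identical copy PDF1.2b separately beside PDF1.4. In set 1 the 3 defensins differed by 0.73, 0.82 and 2.01, so no single one lay near 1.19. The transcript nearest to the mean was JRG21, a jasmonate-regulated oxygenase gene, at 1.61, 1.55 and 1.61. Next came AT1G06620, which encodes an oxygenase of the same superfamily, at 1.03, 2.02 and 1.27. AT5G05600, whose product oxidises jasmonic acid, differed by 1.097, 2.09 and 1.19 and AT3G23550, which encodes a MATE-type transporter, by 1.398, 1.53 and 1.03. CML41, a calmodulin-like gene, AT1G14120, of the oxygenases, and AT5G39670, of the calcium-binding EF-hand proteins, completed the 8. The root mean square distance from the defensin mean was 0.26 log2 units for JRG21 and 0.35 for AT5G39670, the last of them.

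**Figure D5:**
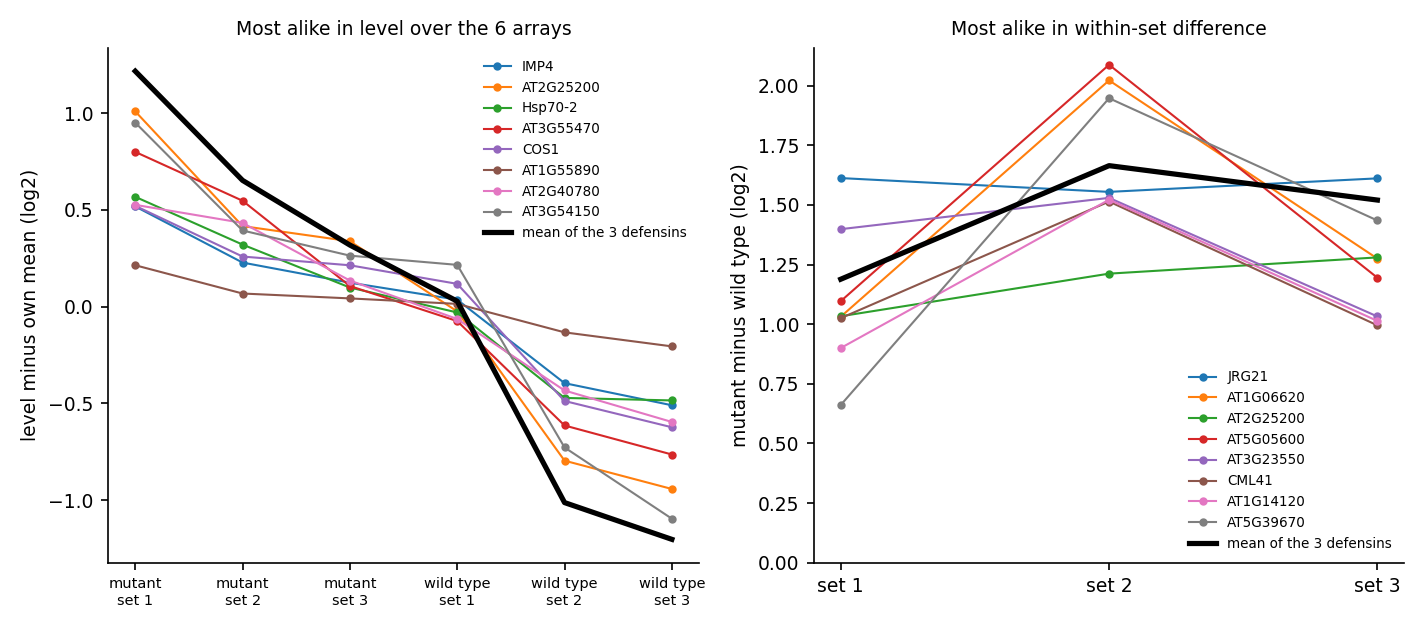
Left, log2 level minus its own mean in the 6 arrays, mutant arrays left of wild-type arrays, for the 8 genes with the highest correlation with the mean of the 3 defensins (black); right, the mutant minus wild-type log2 difference in each set for the 8 genes nearest to the defensin mean. The genes on the left follow the same order of arrays with smaller mean differences, such as 0.58 for IMP4, while JRG21 on the right stays between 1.55 and 1.61.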

How the data were processed

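RNA of 6 whole-seedling samples was hybridised to Affymetrix arrays from 10 micrograms of total RNA, 1 array per sample, per the labels' protocols. Per the submitters' processing notes, signals were made with MAS5 (version not given in the sources used here). Per the values themselves, the deposited data were log2 signals: as powers of 2 they were whole multiples of their array's smallest step in 100% of cases below 3000 steps (tolerance 0.02 step). Column medians were 0, so each array was divided by its median, which no label states. A single value, equal to the log2 of 1e-10, was set to its array's smallest step. Taking a step as 0.1 signal unit, array medians were 186 to 217.

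Gene names came from the platform annotation, updated through RefSeq's table for TAIR10.1. Of 22746 probe sets without controls 13513 matched 1 gene, 503 several and 8730 none. The brightest 60% by mean level, 13648, went into limma 3.58.1 under R 4.3.3 (lmFit, then eBayes with a trend; 2 residual and 6.79 prior degrees of freedom), two-sided, Benjamini-Hochberg adjusted, threshold 0.05, the experimental set being a block term. The labels name the shared set. Deviations of its arrays from their genotype means correlated by 0.67, 0.28 and 0.62 in sets 1 to 3. Between arrays of unlike sets the correlations ran from -0.61 to 0.37. The highest of these, mutant set 3 with wild-type set 2, was above that within set 2, so the values hardly bear out the pairing of set 2. SD is over 3 arrays or 3 sets, SE is from the fit, and the number of arrays limits precision. Of a gene's probe sets the brightest was used. On simulated data (5 draws, 13648 probe sets, 200 changed) the fit recovered 96% of changes of 1 log2 unit, with 17.6 false calls per draw. The simulated noise was normal, independent between arrays and set at the fitted variance. In the real arrays 117 probe sets had a mean difference of at least 1, mutant higher, and only 53 were called higher. The simulated share therefore does not tell what a missing call means here.

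The members and lists were chosen with earlier results of these data known. Named were the members, every tested gene of the lists and the 8 most alike by each measure of likeness. Markers, some dim genes of the lists and genes near the defensins on the chromosome were also named. The rule for the lists took called genes, the 3 brightest and 11 genes by role, of which only EIN3 had a named probe set. Naming every tested gene, THI2.1 and the dim defensins went past that rule. ACO3 and LEA76 were left off their lists, because the table gave no matching gene. Alternatives were the fit without the block, other filters, quantile normalization, the median division undone, an offset of 16 signal units, the control signal as a covariate, eBayes without a trend and each set left out.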

Additional observations from a re-analysis of the deposited data

How the results depend on the processing

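Over the 8 alternatives run on them, the differences of PDF1.2, PDF1.2b and PDF1.4 ranged from 1.07 to 1.71, 1.14 to 1.81 and 1.26 to 1.80. Their sign is not support, since the genes were picked for it, and each was higher in every set, so that leaving out a set could not turn it. The fit without the replicate block gives the same 3 differences by construction. Leaving out 1 set at a time gave 1.16 to 1.71, 1.31 to 1.81 and 1.26 to 1.80. Undoing the median division moved the median of all tested probe sets by -0.12, to -0.066, and the defensins by as much. The 72 calls over all probe sets became 1 without the replicate block, 14 without a filter, 43 among the brightest 40%, 194 with the control signal as a covariate and 1107, 107 and 207 without sets 1, 2 and 3 in turn. Fewer or more probe sets tested is part of the filters; the cause of the other changes was not tested. The listed genes had 1 to 3 calls when a set was left out and 0 under the other alternatives, the fit without the block included.

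Some listed genes with small differences changed sign, and none of them passed in limma in doing so. When 1 set was left out, PDF2.5 ranged from -0.019 to 0.38, PDF2.3 from -0.0011 to 0.27, PDF2.2 from -0.047 to 0.24, MYC3 from -0.10 to 0.21, MYC4 from -0.18 to 0.063, OSM34 from -0.010 to 0.49 and EIN3 from -0.057 to 0.41. With quantile normalization PDF2.3 was at -0.11 and PDF2.2 at -0.073. With the median division undone PDF2.3 was at -0.011 and MYC3 at -0.054, with the offset of 16 they were at -0.011 and -0.052, and with the control covariate at -0.059 and -0.0034, where EIN3 was at -0.077. Dim probe sets such as PDF1.1 and THI2.1 were left out by the filter.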

Other observations

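Genes next to the defensins on the chromosome were looked at after some of their values had been seen. Within 5 protein-coding genes on either side of each defensin, 17 of 30 genes had a named probe set and 10 were tested. None passed in limma, against 0.528% of all tested probe sets. Of the 10, 5 had a difference above 0, with a median of 0.060, against 58.3% of all tested probe sets and a median of 0.058. PDF1.2 lies beside its copy PDF1.2c and PDF1.2b beside PDF1.3, neither of which had a named probe set. Whether transcripts of PDF1.2c or PDF1.3 also bind the probe sets of PDF1.2 and PDF1.2b was not analysed. On the side away from PDF1.2c, PDF1.2 adjoins a row of genes for FAD-linked oxidases of the berberine bridge enzyme type. In that row AT5G44410, the nearest, differed by 0.35, 0.54 and -0.24 in sets 1 to 3, and AT5G44390 differed by 0.56, 0.89 and 0.999 in sets 1 to 3, with a mean of 0.82 (SE 0.18, limma adjusted p = 0.0885). AT5G44380 and AT5G44400 differed by 0.30 and -0.07. AT5G44440, beyond PDF1.2c, was listed far below the array median, at -5.90, -3.62 and -2.79 in the mutant arrays and -6.25, -5.85 and -5.87 in the wild-type arrays, and was not tested. Beside PDF1.4, AT1G19600 differed by 0.08, -0.78 and -0.64, and JMT, a jasmonate methyltransferase gene 3 genes away, was dim, with -1.10, -0.12 and -0.08.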
